A study of Mus musculus with 2 samples.

Results

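The interferon response genes are a set of genes that cells transcribe after type I or type II interferon has bound its receptor. The set was given as a list of 42 names. Of these, 41 had a gene row in both count matrices, out of 32285 gene rows in all, and Mx1 was not analysed here. By role the set holds 5 transcription factors, 4 sensors of nucleic acids, 17 antiviral effectors, 2 genes of ISG15 conjugation, 3 genes of ADP-ribosylation, 7 interferon-inducible GTPases and 4 genes of antigen processing for MHC class I.

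The cells were effector T cells of the colon and small intestine, from mice 26 to 33 weeks old, sorted as positive for CD4 and CD44 and negative for CD62L, CD8a, CD11c, CD45R and F4/80. Both tissues were pooled before nuclei were made. Nuclei went into the Multiome assay, which reads the RNA and the open chromatin of each nucleus. There was 1 library of CD4creZfp362flox/flox mice (Zfp362-/-, the knockout) and 1 library of Zfp362flox/flox mice (Zfp362+/+, the control, which carries the floxed alleles without the Cre). The CD4 promoter drives the Cre, and no label ties a nucleus to an animal. The design asks how loss of the zinc-finger gene Zfp362 in T cells alters their inflammatory state, a question the series' title sets apart from Th17 differentiation.

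After a filter on low-quality barcodes, 2346 knockout and 4176 control nuclei were kept, with a median of 2301.5 and 2007 unique molecular identifiers (UMIs, counts of distinct RNA molecules) per nucleus and 9348999 and 10803590 gene UMIs over all deposited barcodes. Nuclei were put in 3 classes by their own counts: Foxp3-positive (at least 1 UMI of Foxp3, the factor that defines regulatory T cells), other Cd3-positive (no Foxp3 UMI and at least 1 UMI of Cd3d, Cd3e or Cd3g, the T cell receptor's signalling chains) and Cd3-negative (none of these). The knockout library held 249, 1164 and 933 nuclei of these classes, and the control library 420, 2111 and 1645. Depth differed between the genotypes: the median was 4297 UMIs in knockout and 2575.5 in control Foxp3-positive nuclei, 2747.5 and 2101 in other Cd3-positive nuclei, and 1993 and 1852 in Cd3-negative nuclei. Nuclei above 4000 UMIs, which may hold doublets, gave 87.8% of the class's UMIs in knockout and 59.4% in control Foxp3-positive nuclei, so values up to and above that depth are given separately. The deposited barcodes of both libraries shared 11 sequences.

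The label of T cells was checked against marker genes. The 12 T cell markers summed to 4616 CPM in knockout and 4409 in control Foxp3-positive nuclei, and to 1854 and 1679 in Cd3-negative nuclei. CPM are a gene's UMIs per 1000000 UMIs of the class and library. The list includes Cd3d, Cd3e and Cd3g, which are 0 in Cd3-negative nuclei by the class rule. Part of the drop in that class was thus fixed in advance. Between genotypes, single markers of the list went both ways. In Foxp3-positive nuclei Cd4 had 651 CPM in knockout and 219 in control, while Cd3d had 212 and 333. In other Cd3-positive nuclei Cd4 had 733 and 270 CPM, and Cd3d 264 and 382. The part of these differences in the results below was not tested. In Cd3-negative nuclei the 10 markers of innate lymphoid cells summed to 4074 CPM in knockout and 4234 in control, against 1567 and 1387 in other Cd3-positive nuclei. The sum of the 12 dendritic or macrophage markers was also higher there, at 3665 and 2821 against 957 and 681. Of these, Cd74 had 1924 and 1436 CPM and Zbtb46 399 and 410, while Flt3 had 17 UMIs in each library. Itgax, Csf1r, Lyz2 and Clec9a had at most 4 UMIs per library in the class. Xcr1 went the other way, at 2.31 and 2.99 CPM against 15.4 and 7.62 in other Cd3-positive nuclei. Epithelial markers summed to 11398 and 3372 CPM in the class, and to 63.0 and 23.3 up to 4000 UMIs. The class is therefore called by its rule and not as T cells. Cd8a, used in the sort to remove cells, had 0 UMIs in every class. B or plasma cell markers differed between genotypes, at 1000.1 CPM in knockout and 127 in control Foxp3-positive nuclei, and at 1570 and 507 in other Cd3-positive nuclei. In Cd3-negative nuclei the control was higher, at 3677 in knockout and 4349 in control. Up to 4000 UMIs the 3 classes had 225 and 150, 244 and 108, and 545 and 347 CPM. The part of these markers in the results below was not tested. Zfp362 (ENSMUSG00000028799) had 19 knockout and 18 control UMIs in Foxp3-positive, 33 and 54 in other Cd3-positive, and 7 and 25 in Cd3-negative nuclei. Its log2 ratios of knockout over control were -0.31 (95% interval -1.32 to 0.70), -0.49 (-1.17 to 0.15) and -1.14 (-2.66 to 0.04). These counts cover the whole gene, and which exons were deleted is not given in the sources used here, so they do not check the labels.

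As background, type I interferon signals through receptor-bound kinases to a complex that includes STAT2 and IRF9 and binds the interferon-stimulated response element (ISRE). Type II interferon, made by T cells and innate lymphoid cells, acts through the gamma-activated site (GAS). Lymphocytes of the intestine are known to carry a basal level of these transcripts, which infection and inflammation raise.

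Promoter sequences show which of these elements each gene carries. Of the 41 members, 32 were matched by symbol to a RefSeq promoter (build GRCm38.p6), a window of 300 bases from 250 before the start to 50 after it. The ISRE core was searched as a pair of GAAA blocks with any 2 bases between them, and the GAS as TTCNNNGAA, on both strands, with overlapping matches counted separately. The ISRE core lay in 15 of the 32 member promoters (46.9%), against 688 of all 20262 promoters (3.4%), and the GAS in 10 (31.2%), against 1641 (8.1%). Both lay in 4 member promoters (12.5%; Bst2, Gbp5, Gbp7 and Igtp), against 106 of all (0.523%), and 11 members had neither. A match is a description of the letters and not a bound site. The lines below give the 250 bases before the start for 5 members that the results return to, 5' to 3' on the gene's own strand, with matched letters in capitals: Isg15 with overlapping ISRE cores, Ifit3 with separate ones, Bst2 and Igtp with an ISRE core beside a GAS, and Irf8 with GAS matches alone.
Isg15: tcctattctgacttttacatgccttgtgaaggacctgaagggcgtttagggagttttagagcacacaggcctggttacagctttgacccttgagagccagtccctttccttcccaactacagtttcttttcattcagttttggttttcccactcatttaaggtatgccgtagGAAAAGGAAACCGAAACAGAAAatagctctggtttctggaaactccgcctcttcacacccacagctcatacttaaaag
Ifit3: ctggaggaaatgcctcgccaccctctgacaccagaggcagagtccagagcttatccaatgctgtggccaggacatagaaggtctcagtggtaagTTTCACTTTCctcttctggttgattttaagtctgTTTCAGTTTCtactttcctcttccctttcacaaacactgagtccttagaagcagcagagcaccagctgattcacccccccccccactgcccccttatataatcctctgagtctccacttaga
Bst2: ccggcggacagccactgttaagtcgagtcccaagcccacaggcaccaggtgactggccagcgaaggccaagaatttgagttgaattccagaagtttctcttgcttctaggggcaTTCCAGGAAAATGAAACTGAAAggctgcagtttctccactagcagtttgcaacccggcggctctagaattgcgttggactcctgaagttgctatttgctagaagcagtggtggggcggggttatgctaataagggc
Igtp: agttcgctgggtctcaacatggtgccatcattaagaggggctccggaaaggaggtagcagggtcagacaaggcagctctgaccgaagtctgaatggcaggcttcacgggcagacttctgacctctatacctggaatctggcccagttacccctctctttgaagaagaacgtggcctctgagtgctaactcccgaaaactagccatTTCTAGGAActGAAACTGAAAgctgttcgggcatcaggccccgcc
Irf8: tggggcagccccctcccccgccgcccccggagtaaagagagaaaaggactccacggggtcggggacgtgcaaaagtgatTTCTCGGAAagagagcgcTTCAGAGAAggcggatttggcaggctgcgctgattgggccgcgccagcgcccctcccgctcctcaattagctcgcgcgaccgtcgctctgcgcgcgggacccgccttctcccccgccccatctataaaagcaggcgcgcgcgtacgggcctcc
These lie at chr4:156200819-156201068 (minus strand), chr19:34583279-34583528 (plus), chr8:71537473-71537722 (minus), chr11:58199306-58199555 (plus) and chr8:120736108-120736357 (plus). Counted from the start as position 1, with bases before it negative, the first bases of the ISRE cores lie at -78, -72 and -66 in Isg15, at -156 and -122 in Ifit3, at -130 and -124 in Bst2, and at -34 in Igtp. The GAS begins at -136 in Bst2, so that it overlaps the ISRE core at -130 there, at -45 in Igtp, and at -171 and -153 in Irf8. Each stretch lies within an accessible-chromatin peak that was called in both libraries.

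The set as a whole was at nearly the same level in knockout and control nuclei of each class. Summed over the 41 genes, Foxp3-positive nuclei held 1851 CPM in knockout and 1791 in control, a log2 ratio of 0.05 (95% interval -0.02 to 0.12). Other Cd3-positive nuclei held 1822 and 1882 CPM, a log2 ratio of -0.05 (-0.09 to -0.01), and Cd3-negative nuclei 1568 and 1529, a log2 ratio of 0.04 (-0.03 to 0.10). With 1 library per genotype there is no replicate check and no test: every interval here covers counting error only, and a difference between mice or preparations cannot be told apart from one between genotypes. Within the classes the median log2 ratio over members with at least 50 UMIs was 0.06 (27 members), -0.04 (33) and 0.04 (30), against -0.01, -0.00 and -0.01 over all genes with that many UMIs.

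A gene was counted as past the fold where its log2 ratio was at least 0.5 in size with at least 50 UMIs over both libraries. In Foxp3-positive nuclei 2 members were higher and 2 lower past the fold in knockout, among 27 (7.83% of all genes were higher and 11% lower). In other Cd3-positive nuclei none was higher and 2 of 33 were lower (background 5.07% and 5.47%), and in Cd3-negative nuclei 2 of 30 were higher and 2 lower (5.49% and 5.56%). These counts, over all kept nuclei, are near the background, and no member was past the fold in more than 1 class. Up to 4000 UMIs the counts were 2 higher and 3 lower of 13 in Foxp3-positive nuclei (background 8.85% and 11.8%), 2 and 1 of 30 in other Cd3-positive nuclei (5.8% and 6.12%), and 1 and 2 of 28 in Cd3-negative nuclei (5.22% and 6.96%). Of the 27 members with 50 UMIs in every class, 6 had a ratio above 0 in all 3 (Ifih1, Irf1, Irf9, Nlrc5, Parp14 and Zbp1) and 4 below 0 in all 3 (Gbp2, Isg15, Psmb8 and Samd9l).

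**Figure D1:**
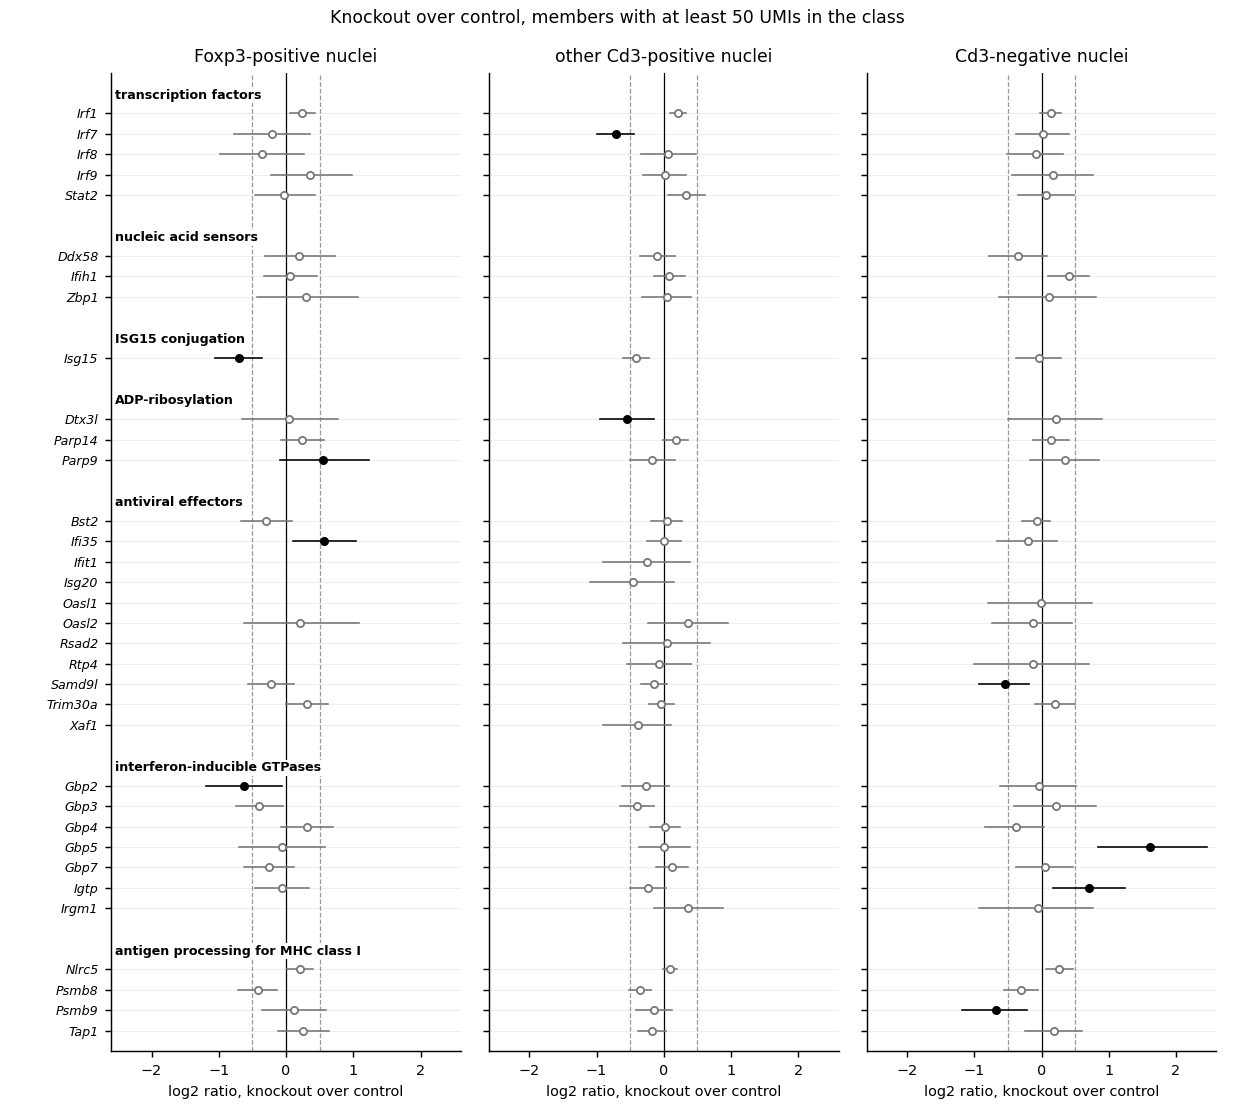
Log2 ratio of knockout over control for each member with at least 50 UMIs, in the 3 classes, with 95% counting intervals; dashed lines mark 0.5 in either direction and filled black points lie past them. Points lie on both sides of 0 in every class, and the members past the lines differ from class to class.

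The sums stayed close at equal depth. With every nucleus thinned to 1000 UMIs, the set held 1872 CPM in knockout and 1868 in control Foxp3-positive nuclei (log2 ratio 0.00, -0.17 to 0.17), 1931 and 1953 in other Cd3-positive nuclei (-0.02, -0.09 to 0.06), and 1494 and 1585 in Cd3-negative nuclei (-0.09, -0.18 to 0.01). The counts past the fold at that depth were on the lower side: 3 of 8 members in Foxp3-positive nuclei (9.18% of all genes), 2 of 27 in other Cd3-positive nuclei (6.92%) and 5 of 20 in Cd3-negative nuclei (7.18%), with none higher in any class (8.83%, 5.53% and 5.17%). The 5 in Cd3-negative nuclei were Ifi35, Samd9l, Gbp2, Gbp4 and Psmb9, on 14 to 31 knockout and 38 to 89 control UMIs, and the intervals of Gbp2 and Gbp4 include 0. The 3 in Foxp3-positive nuclei, Parp14, Samd9l and Psmb8, each had an interval that includes 0. A thinned nucleus held on average 1.87 member UMIs in both genotypes in the Foxp3-positive class. Up to 4000 UMIs, Foxp3-positive nuclei held 2020 CPM in knockout and 1801 in control, a log2 ratio of 0.17 (0.02 to 0.31) on 119 and 299 nuclei. At that depth other Cd3-positive nuclei held 1973 and 1949 CPM (0.02, -0.04 to 0.08) and Cd3-negative nuclei 1557 and 1575 (-0.02, -0.09 to 0.05). The largest of these differences was in the Cd3-negative class above 4000 UMIs, with 1609 CPM in knockout and 1129 in control. Its log2 ratio was 0.51 (0.33 to 0.69) on 64 and 57 nuclei. Among these nuclei the 8 epithelial markers took 54785 CPM in knockout and 32384 in control, and the 8 B or plasma cell markers 15668 and 39020; their part in the difference was not tested. In the 10 knockout and 4 control nuclei above 8000 UMIs of that class, the set held 1814 and 593 CPM.

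**Figure D2:**
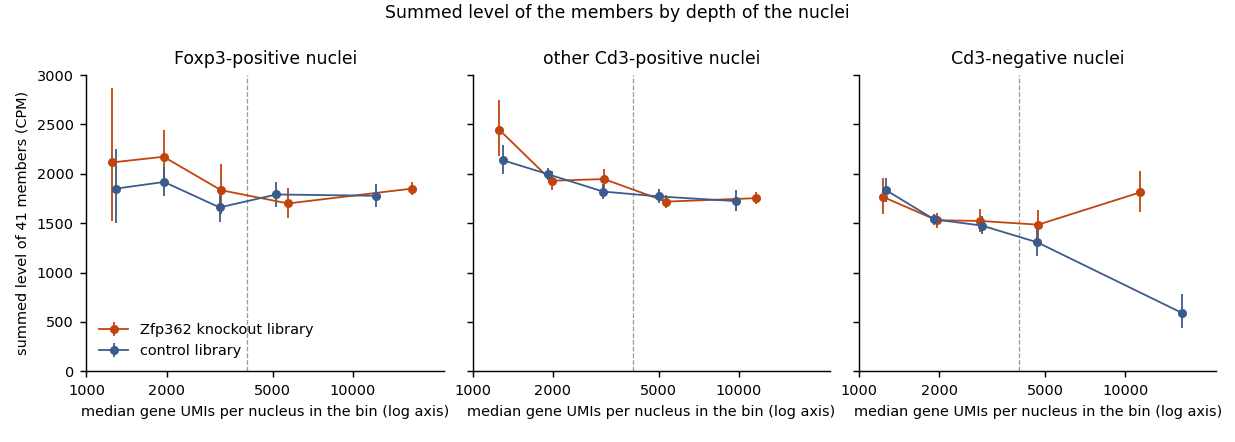
Summed level of the 41 members in CPM (with 95% counting intervals) against the median UMIs of nuclei in 5 depth bins, for knockout and control in each class; the dashed line marks 4000 UMIs. The curves lie furthest apart in Cd3-negative nuclei above 8000 UMIs, where the knockout point lies at 1814 and the control point at 593 CPM. In the other bins the intervals of knockout and control overlap. Knockout lies higher in the shallowest bin of Foxp3-positive nuclei (2115 against 1850 CPM) and of other Cd3-positive nuclei (2449 against 2137).

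Gene spans below are in mm10, from GENCODE vM21. Among the transcription factors, Irf1 was higher in knockout Foxp3-positive and other Cd3-positive nuclei, with intervals above 0. Irf1 (ENSMUSG00000018899, chr11:53770014-53778374), which drives many interferon-gamma responses, had 581 UMIs (267 CPM, 245 to 289) in knockout and 375 UMIs (225 CPM, 203 to 249) in control Foxp3-positive nuclei, a log2 ratio of 0.24 (0.05 to 0.43). It had 1176 UMIs in each genotype in other Cd3-positive nuclei, which is 236 CPM in knockout and 204 in control and a log2 ratio of 0.21 (0.09 to 0.33). In Cd3-negative nuclei it had 256 CPM in knockout and 233 in control, with an interval that includes 0 (0.13, -0.03 to 0.29). The ratios of Irf1 are above 0 in each class and depth setting and under the fold, except in Foxp3-positive nuclei up to 4000 UMIs, where 85 knockout and 137 control UMIs gave 0.66 (0.25 to 1.05), or 0.51 once those nuclei were also thinned to 1000 UMIs.

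Irf7 (ENSMUSG00000025498, chr7:141262706-141266481), the factor that amplifies type I interferon production, was the member with the largest negative ratio past the fold in other Cd3-positive nuclei. It had 169 UMIs in knockout and 322 in control (33.8 CPM, 28.9 to 39.4, and 55.8 CPM, 49.8 to 62.2), a log2 ratio of -0.72 (-1.0 to -0.45). The counts came from 113 knockout and 211 control nuclei, with at most 7 and 21 UMIs in a single nucleus. The ratio depended on depth: it was -1.11 (-1.57 to -0.69) up to 4000 UMIs, on 54 knockout and 246 control UMIs, and -0.07 above 4000 UMIs, on 115 and 76. With nuclei thinned to 1000 UMIs it was -0.81 on 40 and 128 UMIs. Irf7 had log2 ratios of -0.21 in Foxp3-positive and 0.02 in Cd3-negative nuclei. Stat2, which encodes a subunit of the type I complex, had 46.1 CPM in knockout and 36.5 in control other Cd3-positive nuclei (0.33, 0.06 to 0.61). The Stat2 ratio was 0.57 (0.17 to 0.96), past the fold, in nuclei up to 4000 UMIs, on 93 and 132 UMIs. Irf8 and Irf9 stayed under the fold in each class.

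Among the sensors of foreign nucleic acid, no gene was past the fold with 50 UMIs when all nuclei were taken. Summed over Ifih1, Ddx58, Dhx58 and Zbp1, the level was 119 CPM in knockout and 110 in control Foxp3-positive nuclei, 133 and 131 in other Cd3-positive nuclei, and 125 and 114 in Cd3-negative nuclei. Ifih1, which encodes the RNA sensor MDA5, had 76.3 CPM in knockout and 57.7 in control Cd3-negative nuclei, a log2 ratio of 0.40 (0.10 to 0.71), and -0.16 in nuclei thinned to 1000 UMIs, on 52 and 103 UMIs. Ddx58, which encodes the RNA sensor RIG-I, stood at -0.34 in that class and at -0.52 (-1.03 to -0.05) up to 4000 UMIs, on 51 and 129 UMIs.

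The sum of the antiviral effectors differed between genotypes by an amount that depended on class and depth. The 16 with a gene row summed to 368 CPM in knockout and 336 in control Foxp3-positive nuclei, a log2 ratio of 0.13 (-0.02 to 0.29). That ratio was 0.55 (0.21 to 0.87) up to 4000 UMIs, at 462 and 317 CPM, and 0.03 above 4000 UMIs. In other Cd3-positive and Cd3-negative nuclei the summed level was 348 CPM in knockout and 368 in control, and 373 and 395. The Cd3-negative sum had a log2 ratio of -0.16 (-0.30 to -0.02) up to 4000 UMIs and 0.38 (0.03 to 0.73) above. Ifi35 (ENSMUSG00000010358, chr11:101448407-101458698), an interferon-induced protein, had 116 UMIs (53.2 CPM, 44.0 to 63.8) in knockout and 60 UMIs (36.0 CPM, 27.5 to 46.4) in control Foxp3-positive nuclei, a log2 ratio of 0.56 (0.10 to 1.04). Its ratio was 1.47 up to 4000 UMIs, on 24 and 22 UMIs, and 0.31, under the fold, above. In the other classes Ifi35 had log2 ratios of 0.00 and -0.21.

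Samd9l (ENSMUSG00000047735, chr6:3372257-3399572), which restricts viral replication, was lower in knockout Cd3-negative nuclei, with 88 UMIs (40.7 CPM, 32.6 to 50.1) against 200 UMIs (59.7 CPM, 51.8 to 68.6) in control. Its log2 ratio was -0.55 (-0.93 to -0.19), and -0.44, under the fold, up to 4000 UMIs. Trim30a, a ligase that restrains inflammatory signalling, had 104 CPM in knockout and 83.5 in control Foxp3-positive nuclei (0.31, 0.00 to 0.63), with a ratio of 0.89 (0.18 to 1.57) up to 4000 UMIs on 32 and 44 UMIs. It had 88.9 and 91.3 CPM in other Cd3-positive nuclei (-0.04, -0.22 to 0.15). Bst2 (ENSMUSG00000046718, chr8:71534255-71537456), which tethers virus particles to the cell surface, had 143 CPM in knockout and 151 in control Cd3-negative nuclei (-0.07, -0.28 to 0.13). The classical antiviral genes were sparse: Ifit3 had 3 UMIs in 3 knockout nuclei and 23 UMIs in 16 control nuclei of the other Cd3-positive class, under the minimum of 50 UMIs. The Ifit, Oas and Gbp families hold close paralogs, and how reads were split among them is uncertain.

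Isg15 (ENSMUSG00000035692, chr4:156199424-156200818) encodes the ubiquitin-like protein that interferon induces, and Usp18 the protease that removes it. Isg15 was lower in knockout Foxp3-positive nuclei, with 122 UMIs (56.0 CPM, 46.5 to 66.8) against 152 UMIs (91.3 CPM, 77.3 to 107) in control. The log2 ratio was -0.70 (-1.06 to -0.35). It was -0.72 up to 4000 UMIs, on 13 knockout and 56 control UMIs, and -0.77 above 4000 UMIs, on 109 and 96. The direction was the same in each depth setting, while the size was -1.75 at 1000 UMIs, on 6 and 37 UMIs. Among nuclei with at least 2 Foxp3 UMIs (87 knockout and 129 control) the ratio was -0.15, under the fold. In other Cd3-positive nuclei Isg15 had 70.9 CPM in knockout and 94.4 in control (-0.41, -0.61 to -0.22), and the thinned ratio there was -0.03 on 115 and 213 UMIs. In Cd3-negative nuclei it was -0.04. Isg15 and Usp18 together summed to 58.7 CPM in knockout and 93.7 in control Foxp3-positive nuclei, where Usp18 gave 10 UMIs over both libraries.

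The genes of ADP-ribosylation, Parp9, Parp14 and Dtx3l, encode modifying enzymes induced by interferon, and PARP9 and DTX3L act as a complex. Summed, they had 145 CPM in knockout and 120.1 in control Foxp3-positive nuclei (0.27, 0.01 to 0.53), and 138 and 139 in other Cd3-positive nuclei. The Foxp3-positive sum turned with depth, to -0.15 (-0.86 to 0.48) up to 4000 UMIs and -0.37 in thinned nuclei. Parp9 (ENSMUSG00000022906, chr16:35938470-35972605) was past the fold in Foxp3-positive nuclei, with 60 UMIs (27.5 CPM, 21 to 35.4) in knockout and 31 UMIs (18.6 CPM, 12.6 to 26.4) in control, but its interval included 0 (0.55, -0.08 to 1.24). Dtx3l (ENSMUSG00000049502, chr16:35926511-35939151) was past the fold in the other direction in other Cd3-positive nuclei, with 86 UMIs (17.2 CPM, 13.8 to 21.3) and 145 UMIs (25.1 CPM, 21.2 to 29.5), a log2 ratio of -0.54 (-0.95 to -0.15). Both genes start within the same accessible peak (chr16:35938462-35939235). Parp14 had log2 ratios of 0.24, 0.18 and 0.14 in Foxp3-positive, other Cd3-positive and Cd3-negative nuclei, and each interval included 0. In Foxp3-positive nuclei its sign turned with depth, at -0.59 up to 4000 UMIs, on 14 and 55 UMIs, and 0.31 above.

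The interferon-inducible GTPases attack the vacuoles of intracellular pathogens and are induced mainly by interferon-gamma. In Foxp3-positive nuclei Gbp2 (ENSMUSG00000028270, chr3:142620602-142638008) had 51 UMIs (23.4 CPM, 17.4 to 30.8) in knockout and 60 UMIs (36.0 CPM, 27.5 to 46.4) in control, a log2 ratio of -0.62 (-1.19 to -0.06). The sign turned with depth: -1.22 up to 4000 UMIs, on 6 and 38 UMIs, and 0.07 above, on 45 and 22. Gbp3 (ENSMUSG00000028268, chr3:142560026-142573209) was under the fold in each class and had intervals below 0 in the Foxp3-positive and other Cd3-positive classes, with 63.8 CPM in knockout and 84.1 in control Foxp3-positive nuclei (-0.40, -0.75 to -0.05), and 42.3 and 55.6 in other Cd3-positive nuclei (-0.39, -0.65 to -0.14). These ratios were 0.11 and -0.07 up to 4000 UMIs, on 33 and 78 UMIs and on 105 and 233 UMIs.

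In Cd3-negative nuclei 2 GTPases were past the fold. Igtp (ENSMUSG00000078853, chr11:58199556-58207591) had 63 UMIs (29.1 CPM, 22.4 to 37.3) in knockout and 60 UMIs (17.9 CPM, 13.7 to 23.1) in control, a log2 ratio of 0.70 (0.17 to 1.24). Its ratio was 0.72 up to 4000 UMIs, on 50 and 53 UMIs, and 0.63 in thinned nuclei. Igtp overlaps Irgm2 on the same strand, and which of them the shared reads were given to was not tested. Gbp5 (ENSMUSG00000105504, chr3:142493978-142522344) had 42 UMIs (19.4 CPM, 14.0 to 26.2) in knockout and 21 UMIs (6.27 CPM, 3.88 to 9.59) in control, a log2 ratio of 1.61 (0.84 to 2.46). A single knockout nucleus held 19 of the 42 Gbp5 UMIs, and without that nucleus the ratio was 0.76. The ratio up to 4000 UMIs was 0.48 (-0.61 to 1.52) on 15 and 19 UMIs. The group summed to 165 CPM in knockout and 148 in control Cd3-negative nuclei.

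The genes of antigen processing include Psmb8 and Psmb9, subunits of the immunoproteasome, Tap1, a subunit of the peptide transporter, and Nlrc5, the activator of MHC class I transcription. Nlrc5 (ENSMUSG00000074151, chr8:94434356-94527272) had 255 CPM (234 to 277) in knockout and 219.8 (198 to 243) in control Foxp3-positive nuclei (0.21, 0.02 to 0.41). It had 285 and 266 CPM in other Cd3-positive nuclei (0.10, -0.01 to 0.20), and 167 and 139 in Cd3-negative nuclei (0.27, 0.06 to 0.47). Psmb8 (ENSMUSG00000024338, chr17:34197721-34201454) went the other way, with 92.2 CPM in knockout and 124 in control Foxp3-positive nuclei (-0.42, -0.71 to -0.14). It had 101 and 129.5 CPM in other Cd3-positive nuclei (-0.36, -0.52 to -0.19), and 93.4 and 116 in Cd3-negative nuclei (-0.31, -0.56 to -0.06). Neither gene was past the fold in any class, and Psmb8 was below 0 in each class up to and above 4000 UMIs and at equal depth, the values nearest 0 being -0.11 (Foxp3-positive nuclei up to 4000 UMIs) and -0.01 (Cd3-negative nuclei above). Psmb9 (ENSMUSG00000096727, chr17:34181987-34187764) was past it in Cd3-negative nuclei, with 52 UMIs (24.0 CPM, 18.0 to 31.5) in knockout and 130 UMIs (38.8 CPM, 32.4 to 46.1) in control, a log2 ratio of -0.68 (-1.18 to -0.22). Its ratio was -0.72 up to 4000 UMIs, -0.07 above, and -1.19 in nuclei thinned to 1000 UMIs.

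**Figure D3:**
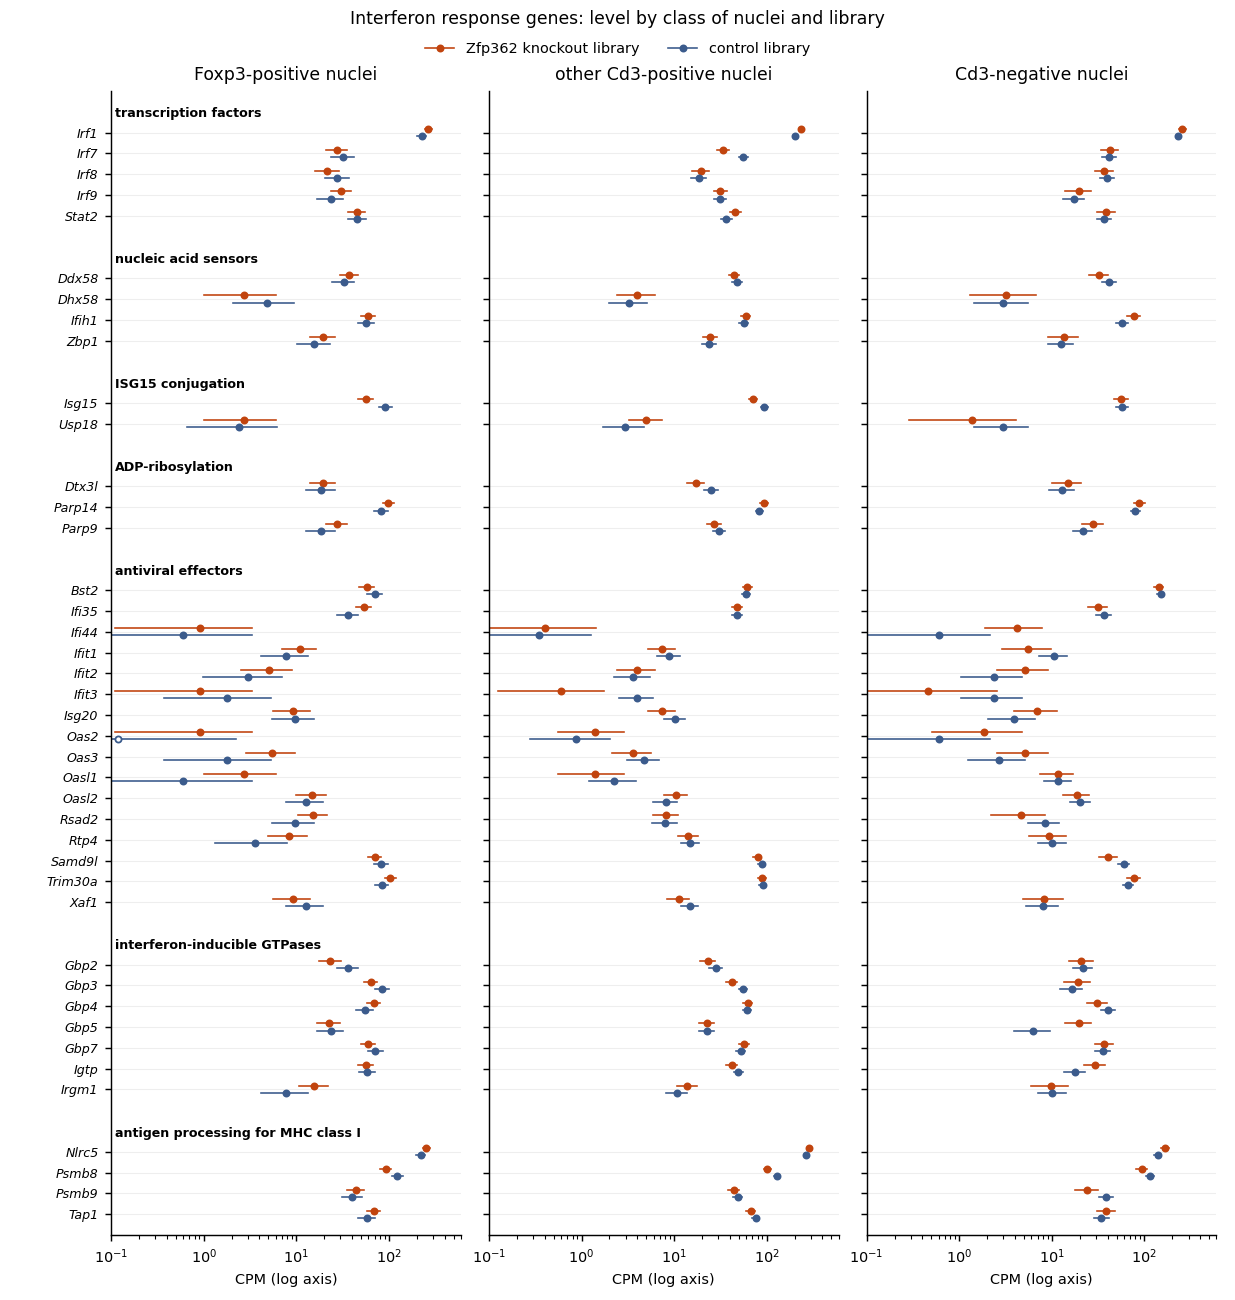
Level of each member in CPM (log axis from 0.1, open circles for 0 UMIs) in knockout and control nuclei of the 3 classes, with 95% counting intervals cut at 0.1. Irf1 and Nlrc5 have most UMIs and the narrowest intervals, and the intervals of knockout and control overlap for most members.

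Between classes, the Cd3-negative nuclei stood apart from the other Cd3-positive nuclei by more members, and by more of all genes, than knockout did from control. In Cd3-negative over other Cd3-positive nuclei the median log2 ratio of the members was -0.37 in knockout and -0.44 in control, against -0.06 and -0.07 over all genes. Of the 32 members with at least 50 UMIs over both classes in each library, 10 were lower past the fold in both (background 11.9%) and 3 higher in both (12.9%). The 10 comprise Gbp3, Gbp4, Gbp7 and Igtp of the GTPases, Tap1 and Nlrc5 of antigen processing, and Irf9, Rtp4, Samd9l and Zbp1. Nlrc5 had a log2 ratio of -0.77 (-0.94 to -0.60) in knockout and -0.94 (-1.09 to -0.79) in control, and Tap1 -0.78 (-1.15 to -0.44) and -1.14 (-1.45 to -0.84). Gbp3 had 19.0 CPM in Cd3-negative and 42.3 CPM in other Cd3-positive knockout nuclei, and 16.4 and 55.6 in control nuclei.

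Bst2, Irf8 and Oasl2 went against that pattern. Bst2 had 143 CPM in Cd3-negative and 61.9 in other Cd3-positive knockout nuclei, and 151 and 60.1 in control nuclei, which gave log2 ratios of 1.21 (0.97 to 1.44) and 1.32 (1.13 to 1.53). Irf8 (ENSMUSG00000041515, chr8:120736358-120756694), a factor that myeloid and some lymphoid cells need, had 37.0 and 19.4 CPM in knockout and 39.4 and 18.5 in control nuclei (0.93, 0.48 to 1.37, and 1.09, 0.71 to 1.47). Oasl2, a relative of the oligoadenylate synthetases, had log2 ratios of 0.83 (0.20 to 1.45) and 1.31 (0.76 to 1.89), and its paralog Oasl1 of 2.97 and 2.34 on fewer UMIs. In nuclei up to 4000 UMIs Bst2 stood at 1.43 in knockout and 1.58 in control, and at equal depth at 1.20 and 1.40. Up to 4000 UMIs Gbp3 stood at -1.73 and -1.83, and the median of the set was -0.69 in knockout and -0.47 in control. At that depth 11 of 27 members were lower in both libraries (background 13.7%) and 2 higher (13.8%), Bst2 and Irf8. Plasmacytoid dendritic cells, which are known for high Bst2 and Irf8, are marked by Siglech, which had 0 UMIs in every class. The 6 markers listed for them summed to 558 CPM in knockout and 463 in control Cd3-negative nuclei, and to 512 and 479 in other Cd3-positive nuclei. The other genes of that list went both ways. Tcf4 had 249 and 211 CPM in Cd3-negative nuclei, against 83.5 and 68.4 in other Cd3-positive nuclei. Klk1 (22.2 and 15.5 against 0 and 0.173) and Ly6d (10.6 and 17.6 against 7.01 and 1.90) were also higher there. Runx2 (217 and 187 against 294 and 297) and Ccr9 (60.1 and 31.4 against 127 and 111) were lower. The part of such cells in the result was not tested.

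**Figure D4:**
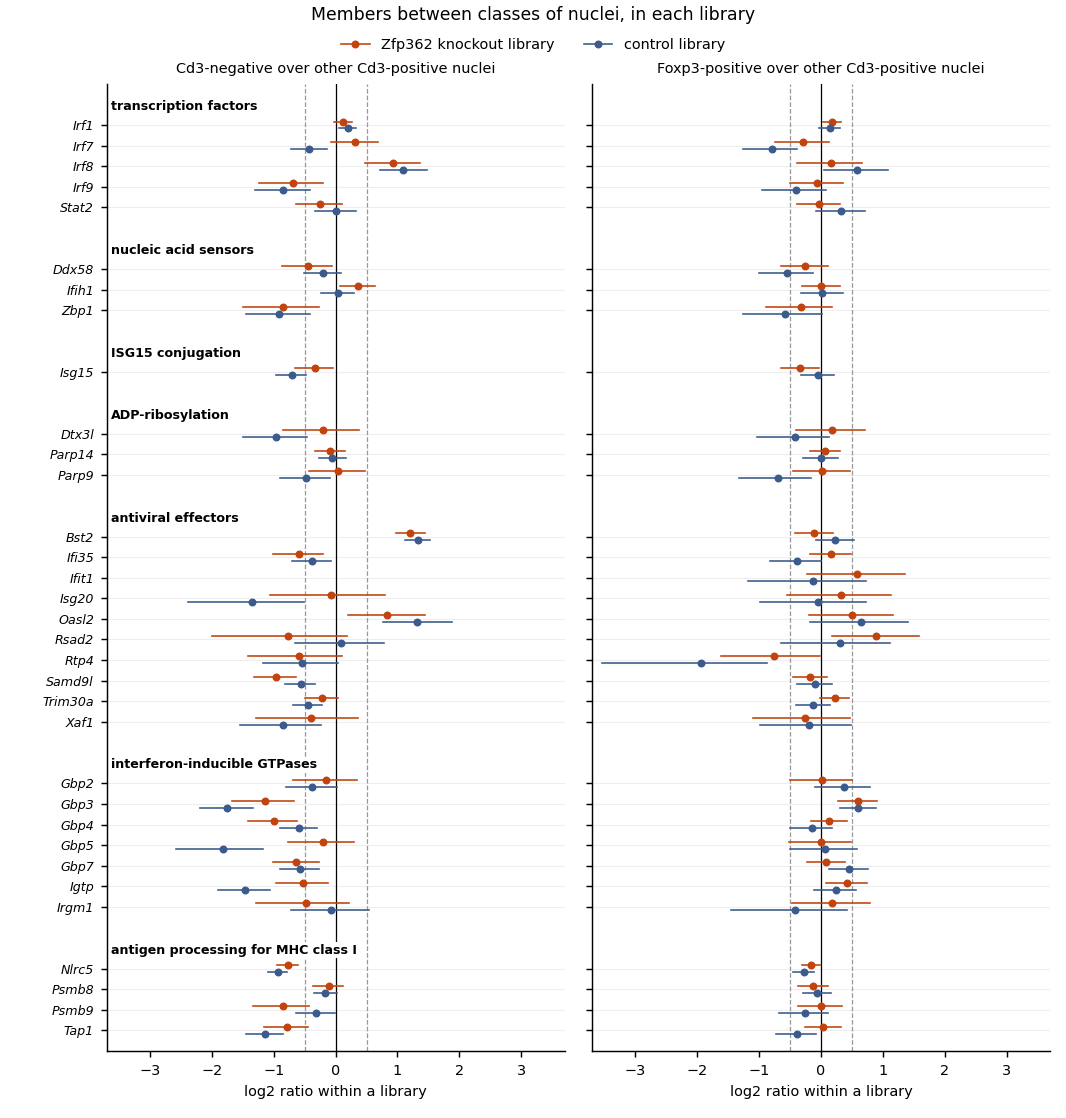
Log2 ratios of Foxp3-positive and of Cd3-negative over other Cd3-positive nuclei for each member with 50 UMIs, in knockout and control, with 95% counting intervals. Bst2, Irf8 and Oasl2 lie above 0.5 and Gbp3, Tap1 and Nlrc5 below -0.5 in Cd3-negative nuclei of both libraries, while most points of the Foxp3-positive contrast lie near 0.

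Foxp3-positive nuclei resembled the other Cd3-positive nuclei more closely, with a median log2 ratio of 0.02 in knockout and -0.10 in control. The 6 markers of regulatory T cells, Foxp3 among them, summed to 4626 CPM in knockout and 5645 in control Foxp3-positive nuclei. In other Cd3-positive nuclei they summed to 3296 and 3171. The sums were 8276 and 7377 against 3546 and 3306 up to 4000 UMIs, and 4118 and 4464 against 3157 and 2921 above. How far these classes mix was not tested. Of 33 members, 2 were higher past the fold in both libraries (Gbp3 and Oasl2; background 1.79%) and 1 lower (Rtp4; 1.17%). Gbp3 had 63.8 CPM in Foxp3-positive and 42.3 in other Cd3-positive knockout nuclei, and 84.1 and 55.6 in control nuclei, a log2 ratio of 0.60 in each library (0.27 to 0.91 and 0.30 to 0.89). It stood at 1.09 in knockout and 0.90 in control up to 4000 UMIs, at 0.74 and 0.53 above, and at 0.56 and 0.64 in thinned nuclei. Gbp3 was thus highest in Foxp3-positive and lowest in Cd3-negative nuclei of both libraries, in all nuclei, up to and above 4000 UMIs, and at 1000 UMIs per nucleus. Above 4000 UMIs the Cd3-negative values rest on 11 knockout and 3 control UMIs, and the knockout ratio over other Cd3-positive nuclei, -0.37, had an interval that includes 0. Up to 4000 UMIs it was 1 of 23 members higher in both (4.55%), and Ifih1 and Ddx58 were lower in both (6.01%). Oasl2 had log2 ratios of 0.50 (-0.19 to 1.16) and 0.65 (-0.18 to 1.40), whose intervals include 0, and its sign turned up to 4000 UMIs, where Foxp3-positive nuclei held 1 knockout and 3 control UMIs. Rtp4, a chaperone of chemosensory receptors that interferon induces, stood at -0.75 (-1.62 to -0.02) and -1.94 (-3.53 to -0.87).

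Within a class, member UMIs were spread unevenly over nuclei. At 1000 UMIs per nucleus the variance of the member count over its mean was 1.68 in knockout and 1.59 in control Foxp3-positive nuclei, 2.16 and 1.99 in other Cd3-positive nuclei, and 1.85 and 2.03 in Cd3-negative nuclei. The counting intervals given here treat each UMI as independent, so for the summed set they are narrower than this spread over nuclei. Among nuclei up to 4000 UMIs, those with at least 5 of 18 antiviral and ISG15 genes detected (a threshold chosen after the values were seen) were rare in both libraries. They were 14 of 1774 knockout nuclei (0.789%, exact binomial interval 0.432 to 1.32) and 23 of 3675 control nuclei (0.626%, 0.397 to 0.938). By class the counts were 2 of 119 knockout and 1 of 299 control Foxp3-positive nuclei, 7 of 786 and 13 of 1788 other Cd3-positive nuclei, and 5 of 869 and 9 of 1588 Cd3-negative nuclei. They held 10.9% of the antiviral UMIs in knockout and 2.21% in control Foxp3-positive nuclei, 8.51% and 9.03% in other Cd3-positive nuclei, and 7.23% and 6.86% in Cd3-negative nuclei. The 23 control nuclei held 20 of the 29 Ifit3 UMIs and 22 of the 64 UMIs of Rsad2, which encodes the antiviral enzyme viperin; the 14 knockout nuclei held 8 of 30 Rsad2 UMIs. One control nucleus with 3752 UMIs had 27 members detected and 49 member UMIs, so sparse antiviral genes can rest on single nuclei.

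The rest of the interferon pathway was described from a list of 122 further genes. Their median log2 ratio was 0.03 in Foxp3-positive (80 genes), -0.01 in other Cd3-positive (97) and 0.02 in Cd3-negative nuclei (86). In the same order, 5 of them were higher and 6 lower past the fold, 2 higher and 6 lower, and 6 higher and 3 lower, where all genes gave 7.83% and 11%, 5.07% and 5.47%, and 5.49% and 5.56%. The receptors summed to log2 ratios of 0.00, 0.06 and -0.03 and the kinases, STATs and inhibitors to 0.13, 0.07 and 0.05. The upstream sensors and adaptors summed to 0.07 (-0.05 to 0.18), 0.14 (0.07 to 0.21) and 0.20 (0.09 to 0.32), and to 0.40 (0.18 to 0.62), 0.25 (0.15 to 0.35) and 0.23 (0.10 to 0.35) up to 4000 UMIs. The further MHC class I genes summed to -0.20 (-0.23 to -0.17), -0.08 and -0.06, and in Foxp3-positive nuclei to -0.00 (-0.06 to 0.06) up to 4000 UMIs and -0.08 (-0.15 to -0.00) in thinned nuclei. Of the ligands, Ifnb1 had 0 UMIs in every class. Ifng, the type II interferon, had 160 UMIs (73.4 CPM) in knockout and 32 UMIs (19.2 CPM) in control Foxp3-positive nuclei, a log2 ratio of 1.92 (1.38 to 2.53). Up to 4000 UMIs that count was 1 in knockout and 11 in control. In other Cd3-positive nuclei Ifng had 594 and 817 UMIs (-0.25, -0.40 to -0.10). Iigp1, a GTPase of the same group as Igtp, had 134 and 48 UMIs in Foxp3-positive nuclei (1.08, 0.61 to 1.60), but 8 and 15 up to 4000 UMIs.

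At the other end of that list, Ly6a, the surface antigen Sca-1, had 63 knockout and 118 control UMIs in Foxp3-positive nuclei, a log2 ratio of -1.29 (-1.76 to -0.84) that was -0.72 up to 4000 UMIs, on 13 and 56 UMIs. Ifi27l2a, a mitochondrial interferon-induced protein, had 507 and 985 UMIs in other Cd3-positive nuclei (-0.75, -0.91 to -0.59), and its ratio up to 4000 UMIs was -0.49. In Cd3-negative nuclei Cxcl10, the chemokine that draws CXCR3-bearing T cells, had 326 UMIs (151 CPM) in knockout and 881 UMIs (263 CPM) in control, a log2 ratio of -0.80 (-0.99 to -0.62) that stood at -0.94 up to 4000 UMIs. Socs1, the inhibitor of JAK kinases, had 229 and 514 UMIs there (-0.53; -0.51 up to 4000 UMIs). Eif2ak2, the RNA-activated kinase PKR, was at the upper end in other Cd3-positive nuclei, with 143 and 115 UMIs (0.52, 0.16 to 0.89), and stood at 0.75 up to 4000 UMIs.

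Accessible chromatin at the promoters was then set beside the RNA. A promoter was the stretch from 1000 bases before the first to 100 after the last annotated start of the gene. For genes with distant starts it is long. It took in 8 shared peaks of Nlrc5 (chr8:94433865-94492800 in knockout) and 3 of Rtp4 (chr16:23544263-23610367). The ratios of these 2 genes therefore pool peaks along the gene. Of the 41 members, 39 had a promoter peak called in both libraries. Ifi44 had none in either library and Oas2 none in control. Summed over promoters, peak CPM (counts in peaks scaled likewise) gave log2 ratios of knockout over control of -0.04, -0.02 and -0.02 in Foxp3-positive, other Cd3-positive and Cd3-negative nuclei. Psmb9 and Tap1 share a promoter peak, as do Parp9 and Dtx3l, and the counts of a shared peak entered for each gene. In Foxp3-positive nuclei 3 of 38 promoters were higher past the fold (4.65% of all) and 2 lower (2.99%). In other Cd3-positive nuclei none of 39 was past it (4.14% and 1.67%), and in Cd3-negative nuclei 1 of 38 was higher and none lower (3.61% and 1.97%).

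Of the 10 members whose RNA was past the fold in a class, 4 had a promoter ratio of the same sign there (Irf7, Dtx3l, Gbp2 and Psmb9) and 6 of the other sign. The promoter intervals of these 4 all include 0, so the signs are uncertain. The Psmb9 ratio is that of the peak it shares with Tap1. Over all genes past the RNA fold, summed over the classes, 56.4% had the same sign. Oasl2 had 28.7 peak CPM in knockout and 16.9 in control Foxp3-positive nuclei (0.76, 0.11 to 1.19), where its RNA stood at 0.21. Rsad2 had 21.3 and 14.0 peak CPM in Cd3-negative nuclei (0.61, 0.15 to 1.04), with 38 RNA UMIs over both libraries. Parp9, which had more RNA in knockout Foxp3-positive nuclei, had a promoter ratio of -0.53 (-0.96 to -0.01). In the same class the promoters of Igtp (0.58, -0.10 to 1.28), Xaf1 (0.53, -0.10 to 1.32) and Ddx58 (-0.52, -0.92 to 0.13) were past the fold with intervals that include 0, and their RNA stood at -0.06, -0.46 (on 41 UMIs) and 0.19. The Isg15 promoter had 18.0 peak CPM in knockout and 16.0 in control Foxp3-positive nuclei (0.16, -0.42 to 0.83), where its RNA stood at -0.70. The Irf7 promoter had 34.4 and 37.6 peak CPM in other Cd3-positive nuclei (-0.13, -0.35 to 0.11), where its RNA stood at -0.72.

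Between classes the promoters differed less than the RNA. In Cd3-negative over other Cd3-positive nuclei the median promoter ratio was -0.21 in knockout and -0.10 in control, against -0.05 and -0.06 over all promoters. None of 39 was higher past the fold in both libraries (background 8.99%) and 2 were lower (4.34%), Ifit2 at -0.52 and -0.67 and Ifit3 at -0.54 and -1.0. The Ifit3 intervals include 0 (-1.68 to 0.63 and -2.34 to 0.04), on 18 peak counts in Cd3-negative nuclei of each library. At the Bst2 promoter printed above, with its ISRE cores and GAS, the ratio was -0.24 in knockout and 0.05 in control, where the RNA stood at 1.21 and 1.32. In Foxp3-positive over other Cd3-positive nuclei no member promoter was past the fold in both libraries, higher or lower (0.815% and 0.559% of all).

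**Figure D5:**
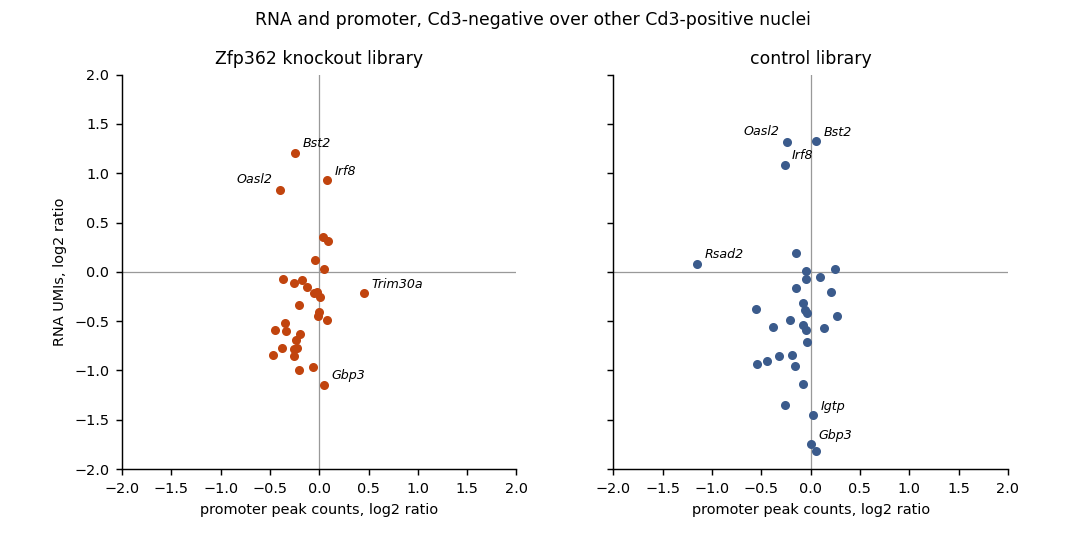
Log2 ratio of Cd3-negative over other Cd3-positive nuclei for promoter peak counts (horizontal axis) and RNA UMIs (vertical axis) of 32 members, in a panel each for knockout and control. The RNA ratios of Bst2 are 1.21 and 1.32 while its promoter ratios are -0.24 and 0.05, and the promoter ratios span a narrower range than the RNA ratios.

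Grouping by promoter letters gave no ordering of the genotype ratios that held across classes. Members with an ISRE core only had median log2 ratios of 0.02 (6 members), -0.04 (9) and -0.04 (7) in Foxp3-positive, other Cd3-positive and Cd3-negative nuclei, and members with a GAS only -0.06 (4), 0.00 (5) and -0.15 (4). The 4 members with both had -0.16, 0.03 and 0.38, and members with neither 0.08 (8), -0.18 (9) and 0.02 (9).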

How the data were processed

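The deposited files hold counts of UMIs per gene and nucleus and counts per accessible peak and nucleus. Per the file headers the authors made them with version 2.0.1 of Cell Ranger ARC, and the build is mm10 per the submitters' processing notes. Barcodes entered with 500 UMIs and 300 genes or more, unless over 10% of their UMIs were mitochondrial. Counts were summed over the nuclei of a class and scaled to CPM. Log2 ratios used a pseudocount of 0.5 UMI, with exact Poisson intervals for counts and exact conditional 95% intervals for ratios. No test was possible with 1 library per genotype. A nucleus enters a class by its own UMIs, so deeper nuclei are more often called Foxp3-positive or Cd3-positive. No doublet caller was run; values up to and above 4000 UMIs are given instead. Thinning to 1000 UMIs left out 82 knockout and 144 control nuclei. No class is known to lack these genes, so free RNA was not measured and CPM is given rather than the share of nuclei with a UMI.

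Gene positions came from GENCODE vM21, matched by gene ID for 32158 of 32285 rows. Promoter peaks overlap the window from 1000 bases before the first to 100 after the last annotated start of a gene. A peak was shared where both libraries' peaks overlap by at least 1 base, and 90.7% of peak values in knockout and 91.7% in control were even, so each fragment was taken to give a pair of counts and intervals were computed on fragments. Of the members, 15 overlap another counted gene, 4 of them on the same strand (Irf9, Rtp4, Gbp4 and Igtp).

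The members, the gene lists and the marker lists were chosen with earlier results of these data known. Genes named in full are the members past the fold with at least 50 UMIs and the 5 with most UMIs in each class; of the other pathway genes, up to 3 at either end with at least 100 UMIs; the remaining named genes were chosen after their values were seen. A gene of the pathway list is not reported here by name. The scripts were tested on simulated data, under Python 3.11.15 with numpy 2.4.6, scipy 1.17.1 and pandas 2.3.3.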

Additional observations from a re-analysis of the deposited data

How the results depend on the processing

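No paired analysis was possible because each genotype has 1 library, and for the same reason no replicate could be left out. Of 181 recomputed summary values 118 stayed within the spread or count range set for them and 63 moved; of 1080 recomputed values of single genes 948 stayed, 131 moved and 1 reversed, Gbp2 in Foxp3-positive nuclei above 4000 UMIs, at 0.065. The causes were not tested. Keeping all deposited barcodes, leaving mitochondrial and ribosomal protein genes out of the denominator, a pseudocount of 2, other peak overlaps, all called peaks and a promoter window of 2000 bases moved no summary value.

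In Foxp3-positive nuclei the median log2 ratio of the members, knockout over control, was 0.15 up to 4000 UMIs, -0.088 and -0.10 thinned to 1000 and 2000 UMIs, -0.13 where a class needs 2 UMIs, and 0.29 thinned to 1000 UMIs among nuclei up to 4000. The sum was 0.17 up to 4000 UMIs and the promoter median 0.055. Members higher past the fold numbered 0 thinned to 1000 UMIs and at a log2 fold of 1, 1 with at least 100 UMIs and in the last thinning, and 5 with at least 20 UMIs. Lower ones numbered 0 at a log2 fold of 1, 1 thinned to 2000 UMIs and in the last thinning, and 4 by the mean over nuclei.

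In other Cd3-positive nuclei the median was 0.047 up to and -0.11 above 4000 UMIs, -0.081 where a class needs 2 UMIs and 0.058 in the last thinning. The sum was 0.018 up to 4000 UMIs, 0.029 in the last thinning and -0.0055 by the mean over nuclei. Higher members numbered 2 up to 4000 UMIs and in the last thinning, and 1 thinned to 2000 UMIs, by the mean over nuclei and with at least 20 UMIs. Lower ones numbered 1 up to and above 4000 UMIs, 4 with at least 20 UMIs and 0 at a log2 fold of 1.

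In Cd3-negative nuclei the median was 0.46 above 4000 UMIs, 0.16 thinned to 2000 UMIs and -0.029 by the mean over nuclei. The sum was 0.51, 0.16 and -0.036 under those settings, -0.085 thinned to 1000 UMIs and -0.076 in the last thinning. Higher members numbered 1 up to and above 4000 UMIs, with at least 100 UMIs, at a log2 fold of 1 and without nuclei holding other-lineage markers, 0 in both thinnings to 1000 UMIs, and 4 with at least 20 UMIs. Lower ones numbered 0 above 4000 UMIs and at a log2 fold of 1, 5 of 20 thinned to 1000 UMIs (7.18% of all genes), 4 of 19 in the last thinning and 4 with at least 20 UMIs.

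Between classes, the median of Foxp3-positive over other Cd3-positive nuclei was 0.093 in knockout and -0.21 in control up to 4000 UMIs, 0.13 and -0.013 above, and 0.094 in knockout where a class needs 2 UMIs. For Cd3-negative over other Cd3-positive nuclei it was -0.69 in knockout up to 4000 UMIs, -0.15 in knockout and -0.75 in control above, and -0.50 and -0.51 thinned to 1000 UMIs. The last thinning, the settings without other-lineage nuclei and the removal of the nucleus with most UMIs of a gene were chosen after seeing the data. Depth limits the members with under 50 UMIs, for which no fold was called.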
